A study of Triticum aestivum with 18 samples.

Results

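PsbP, PsbO, petC and rbcl are 4 genes of photosynthesis named in the annotation of the wheat array, out of 771 annotated genes, and their transcripts were followed here in roots. The members were all probe sets whose annotated gene carries 1 of these names as symbol or synonym, 33 of 61179 wheat probe sets: 2 for PsbP, 1 for PsbO, 2 for petC and 28 for rbcl. The genes were chosen by measured intensities of these same arrays, in which low N roots were set against the other deficiencies, so low N values are given as a description and support nothing. Arrays of the other deficiencies entered that choice too, so their values are no independent support either. A probe set was tested if at least 3 of the 18 arrays gave it an intensity no lower than that array's median. Of the 33, 11 passed and 22 did not. Just inside the threshold stood an rbcl probe set with 4 such arrays, and each of the 22 outside it had 0.

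The roots were of the winter wheat cultivar Hereward and were dug up in 2011, at booting, at the long-running Broadbalk experiment of Rothamsted. The groups, of 3 arrays each, were low N, low K, low Mg, low P and low S roots and a nutrient-replete control, and the labels name no other difference between them than the fertiliser. Per the labels, N, P, K and Mg had been withdrawn since 1843 and S since 2000. The titles say that K, Mg, P and S were not applied but call the N supply low. The series text speaks of a control plot and of 12 samples, against 18 arrays here, and the number of plots per group is not given. If each group came from 1 plot, plot and nutrient cannot be told apart. The p-values then rest on the spread between samples within plots, pooled over the 6 groups, and not on the spread between plots.

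In leaves, light drives electrons from water through photosystem II, the cytochrome b6f complex and photosystem I, and the energy gained serves Rubisco and its cycle to fix carbon. PsbO and PsbP are extrinsic proteins of photosystem II that stabilise the site where water is split. petC encodes the Rieske iron-sulphur protein of the cytochrome b6f complex. The name rbcl stands for the large subunit of Rubisco, which plants encode in the plastid genome. Root plastids are mostly colourless and carry out little or no photosynthesis.

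The RefSeq table of the wheat genome placed all 4 genes, rbcl included, on nuclear chromosomes, and it held 0 plastid genes. That the rbcl probe sets read the plastid transcript rests on the name alone, and rbcl is described apart from the other 3 genes. Intensities are linear values in arbitrary units. They compare arrays for 1 probe set and do not compare genes. In whole roots, fewer cells that express a gene and less of its RNA per cell cannot be told apart.

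PsbP, PsbO and petC had their lowest group mean in low N roots and their highest in low S roots, on the log2 scale and on each of their 4 tested probe sets. Between these ends the groups overlapped, and arrays of 1 group often lay further apart than the means of different groups. Against the control, none of the 11 tested probe sets passed limma's test in any deficiency.

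PsbP was measured by a brighter and a dimmer probe set. On the brighter one the intensities were 156, 142 and 127 in low N roots, 541, 495 and 308 in low K, 458, 399 and 523 in low Mg, 174, 486 and 436 in low P and 822, 388 and 628 in low S roots, against 218, 337 and 421 in the control. All low N arrays lay below every other array, and low P array 1 came next. The low S arrays overlapped the control, since low S array 2 lay below control array 3.

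The dimmer PsbP probe set gave 54.2, 54.3 and 38.8 in low N, 239, 142 and 93.1 in low K, 133, 139.9 and 170.0 in low Mg, 58.2, 119 and 135 in low P and 313, 186 and 178 in low S roots, against 115, 146 and 161 in the control. Here all low S arrays lay above all control arrays. Over the 18 arrays its Pearson correlation with the brighter one was 0.93. The ending of its identifier, x_at, marks probes that can also match other sequences.

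PsbO was measured by 1 probe set, with 181, 219.7 and 195 in low N, 508, 398 and 265 in low K, 451, 395 and 517 in low Mg, 210.1, 523 and 509 in low P and 998, 462 and 566 in low S roots, against 168, 465 and 345 in the control. No neighbours in the order of its group means were free of overlap. Its lowest array was control array 1 and not a low N array. Low S array 1 gave the highest value of PsbO, as it did of both PsbP probe sets and of petC.

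petC had 132, 126 and 117 in low N, 322, 220.2 and 125 in low K, 208, 220.5 and 384 in low Mg, 134, 375 and 319 in low P and 472, 261 and 282 in low S roots, against 164, 184 and 223 in the control. All low S arrays lay above all control arrays, and low K array 3 lay among the low N arrays. The other petC probe set ran from 0.633 to 18.3, never reached an array's median and was not tested.

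**Figure D1:**
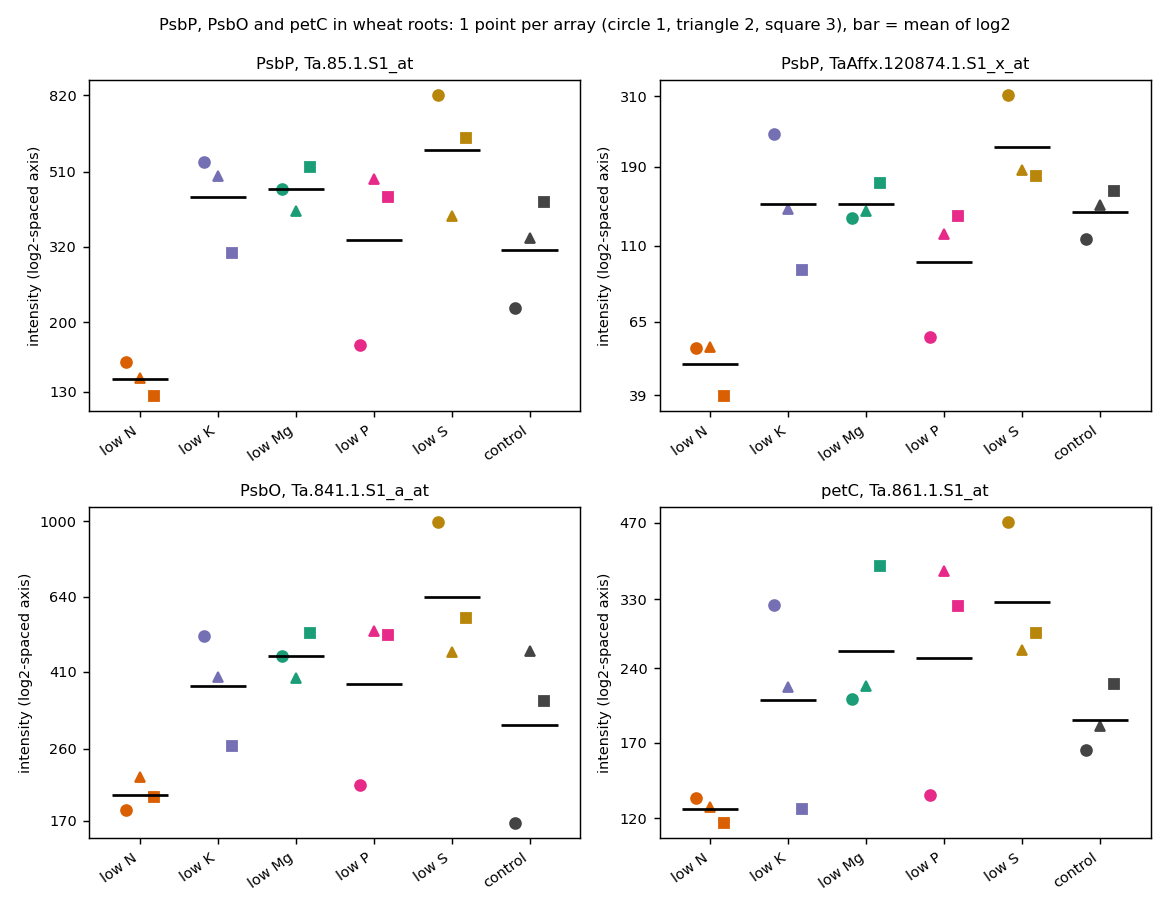
Intensity (log2-spaced vertical axis, arbitrary units) of the tested probe sets of PsbP, PsbO and petC by group, with 1 point per array (circle, triangle and square for replicates 1, 2 and 3) and a bar at the mean of the log2 values. The low N bar is the lowest and the low S bar the highest in every panel, and low P array 1 lies far below the other low P arrays.

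In the order of group means, low N was followed by the control for PsbO, petC and the brighter PsbP probe set, and low Mg stood next below low S on all 4 probe sets. Neighbours without overlap were low N and the control for petC and the brighter PsbP probe set, and low N and low P, and low Mg and low S, for the dimmer one. Each other pair of neighbours overlapped.

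The low N values are the description by which the genes were chosen. For both PsbP probe sets, 12 of 12 arrays of the other deficiencies lay above the highest low N array, and for PsbO and petC 11 of 12 did. Against the control the log2 differences of low N were -1.16 and -1.52 for PsbP, -0.60 for PsbO and -0.59 for petC. On 3 of the 4 probe sets all low N arrays lay below all control arrays, as on 6.31% of all 34255 tested probe sets. Limma called 0 of 11 members at an adjusted p under 0.05, beside 0.415% of all tested probe sets. At an unadjusted p under 0.05 it was 3 of 11, beside 11.4%. These were the 2 PsbP probe sets and 1 of 7 rbcl probe sets. The low N arrays spanned 1.12-fold for petC, 1.21-fold for PsbO and 1.24-fold for the brighter PsbP probe set, the narrowest of the 6 groups in each. For the dimmer PsbP probe set they spanned 1.40-fold, wider than low Mg at 1.28-fold and the control at 1.39-fold.

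Low S roots stood highest against the control. PsbO averaged 675 ± 284 in low S and 326 ± 150 in control roots (SD, n = 3 each), a log2 difference of 1.09 ± 0.39 (SE) with a 95% interval from 0.28 to 1.91. The brighter PsbP probe set averaged 613 ± 218 in low S and 326 ± 102 in control roots, a log2 difference of 0.90 ± 0.35 with an interval from 0.15 to 1.64. petC averaged 338 ± 116 in low S and 190.1 ± 29.8 in control roots, a log2 difference of 0.79 ± 0.38 with an interval from -0.01 to 1.59. Without control array 1 the PsbO difference was 0.67 and without control array 2 it was 1.41. Without low S array 1 the petC difference was 0.52. None passed after adjustment over all tested probe sets (limma, adjusted p = 0.262 for PsbO, 0.303 for PsbP and 0.38 for petC).

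The median log2 difference of the 4 probe sets was 0.84 in low S against the control, beside 0.04 over all tested probe sets. All 4 were positive, and the low S arrays had entered the choice of the genes. On 2 of them, the dimmer PsbP probe set and petC, the low S arrays lay wholly above the control, as on 9.63% of all tested probe sets. With single arrays left out the median ran from 0.59 to 1.07. Limma called 0 of 11 members, beside 0.0175% of all tested probe sets. At an unadjusted p under 0.05 it was 2 of 11, beside 13.3%, so the count over all 11 is near the background. Both were among the 4, PsbO and the brighter PsbP probe set, and 0 of 7 rbcl probe sets had one. On 1 of 7 rbcl probe sets the low S arrays lay wholly above the control. PsbP and PsbO varied together over the arrays, so the 2 are not separate results.

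In low Mg roots the 4 probe sets had a median of 0.50 log2 against the control, beside 0.04 over all tested probe sets. PsbO averaged 455 ± 60.9 in low Mg and 326 ± 150 in control roots, a log2 difference of 0.59 ± 0.39 (limma, adjusted p = 0.655). The brighter PsbP probe set stood at 0.54 ± 0.35 and petC at 0.46 ± 0.38 log2, while the dimmer PsbP probe set stood at 0.07. Without control array 1 the median was 0.23, PsbO stood at 0.17 and the brighter PsbP probe set at 0.28, and without low Mg array 3 the median was 0.31 and petC stood at 0.18. Arrays overlapped on all 4. Limma called 0 of 11 members, beside 0.0613% of all tested probe sets, and at an unadjusted p under 0.05 it was 0 of 11, beside 9.27%.

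In low K roots the 4 probe sets ran from 0.07 to 0.47 log2 against the control with a median of 0.23, which single arrays decided: leaving out low K array 1 gave -0.033, leaving out low K array 3 gave 0.54, and leaving out control array 1 gave -0.014. Limma called 0 of 11 members in low K, beside 0.204% of all tested probe sets, and at an unadjusted p under 0.05 it was 0 of 11, beside 9.58%. In low P they ran from -0.51 to 0.42 log2 with a median of 0.22, and the PsbP probe sets stood on either side of 0. Leaving out low P array 1, 2 or 3 gave a median of 0.67, -0.032 or 0.017, and leaving out control array 1 or 3 gave -0.12 or 0.37. Limma called 9.51% of all tested probe sets in low P and 0 of 11 members. At an unadjusted p under 0.05 it was 3 of 11, all of them rbcl probe sets, beside 26.5% of all tested probe sets, so this count too is near the background.

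**Figure D2:**
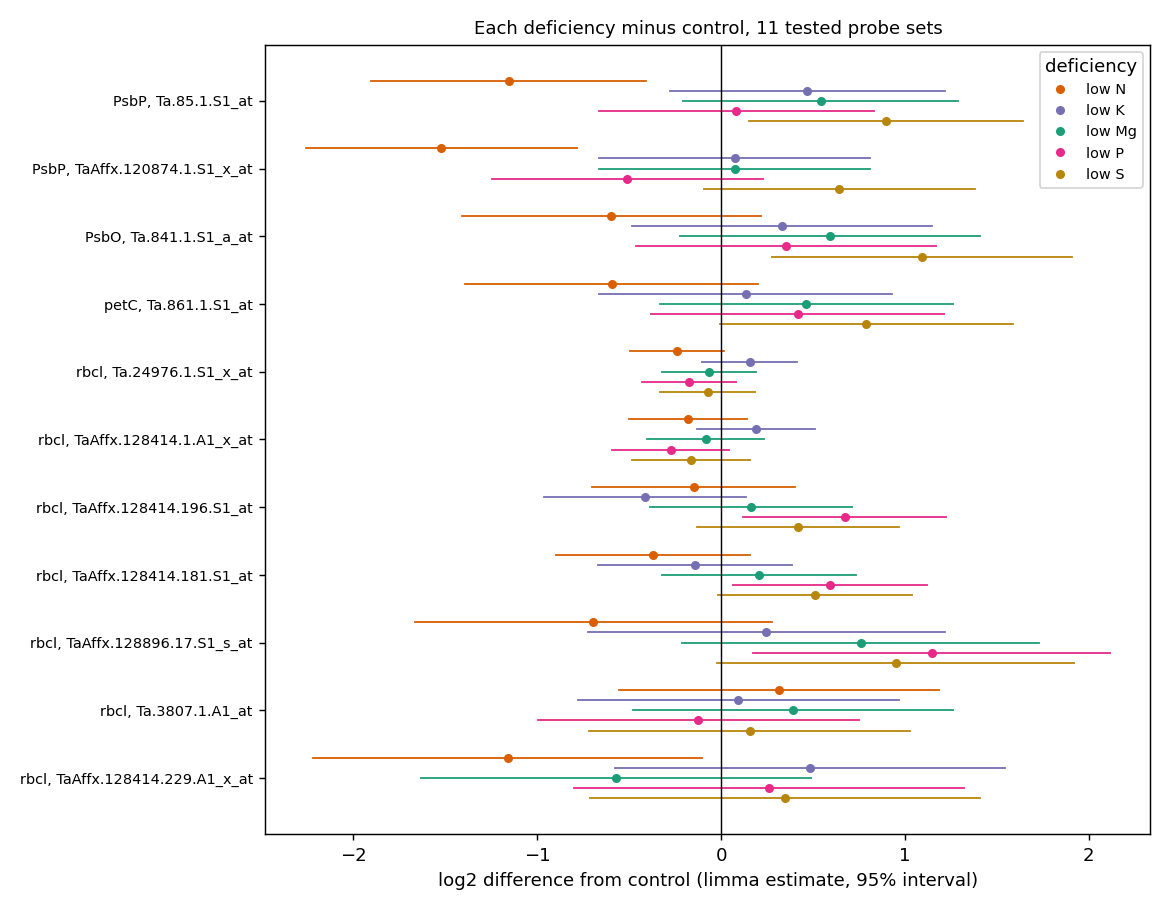
Log2 difference of each deficiency from the control (horizontal axis, limma estimate with its 95% interval) for the 11 tested probe sets, named on the vertical axis. For PsbP, PsbO and petC, low S lies at the right end, between 0.64 and 1.09, and low N at the left end.

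The deficiencies other than low N were also compared with each other. For PsbP, PsbO and petC limma called 0 of 4 probe sets in each of the 6 comparisons. The largest difference was that of the dimmer PsbP probe set in low S against low P, 1.15 ± 0.35 log2 (limma, adjusted p = 0.134), with 226 ± 76.1 in low S and 104 ± 40.7 in low P roots. Its low S arrays lay wholly above its low P arrays, as on 9.6% of all tested probe sets, and wholly above its low Mg arrays, as on 4.8%. The brighter PsbP probe set stood at 0.81 ± 0.35 log2 in low S against low P (limma, adjusted p = 0.316), and these were the 2 of 4 at an unadjusted p under 0.05, beside 13.7% of all tested probe sets. The median of the 4 in this comparison was 0.78 log2 with all arrays, 0.33 without low P array 1 and 0.49 without low S array 1.

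The median of the 4 probe sets was 0.61 log2 in low S against low K, 0.43 in low S against low Mg and 0.17 in low Mg against low K. It was -0.35 in low P against low Mg and -0.18 in low P against low K. Single arrays turned 3 of these signs. Without low P array 1 the median was 0.10 in low P against low Mg and 0.27 in low P against low K, where it was also 0.0028 without low K array 1. Without low K array 3 it was -0.11 in low Mg against low K, and 0.27 in low S against low K. Without low S array 1 it was 0.14 in low S against low Mg and 0.35 in low S against low K. No probe set of the 3 genes had an unadjusted p under 0.05 in these 5 comparisons. Of all 34255 tested probe sets, 10015 had one in low P against low K and 6585 in low S against low K. It was 5623 in low Mg against low K, 5456 in low P against low Mg and 1246 in low S against low Mg. After adjustment limma called 13.9% of all tested probe sets in low P against low K and 2.82% in low S against low K. It called 1.78% in low P against low Mg, 0.838% in low S against low P, 0.359% in low Mg against low K and 0% in low S against low Mg.

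The spread between arrays of a group was wide for the 3 genes. The residual standard deviation was 0.49 and 0.46 log2 for the PsbP probe sets, 0.54 for PsbO and 0.52 for petC, and from 81.8% to 86.3% of all tested probe sets varied less. Low P array 1 stood at -0.94 log2 from its group mean for the brighter PsbP probe set, at -0.86 for PsbO and at -0.92 for petC. Low K array 3 stood at -0.50 for PsbP, -0.51 for PsbO and -0.73 for petC. Control array 1, which enters every difference from the control, stood at -0.53 for PsbP, -0.84 for PsbO and -0.20 for petC. Low S array 1 lay on the other side for all 3 genes, at 0.49 for PsbP, 0.64 for PsbO and 0.53 for petC. Control array 2 stood at 0.10 for PsbP, 0.64 for PsbO and -0.04 for petC.

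The 3 genes deviated together. Over the 18 arrays the Pearson correlation of log2 intensity was 0.92 between PsbP and PsbO (Spearman 0.87), 0.89 between PsbP and petC (Spearman 0.88) and 0.90 between PsbO and petC (Spearman 0.87). Without the low N arrays the Pearson values were 0.91, 0.84 and 0.85 over 15 arrays. For deviations from the group means they were 0.89, 0.88 and 0.81. The genes share their arrays and scaling, and these values are a description.

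**Figure D3:**
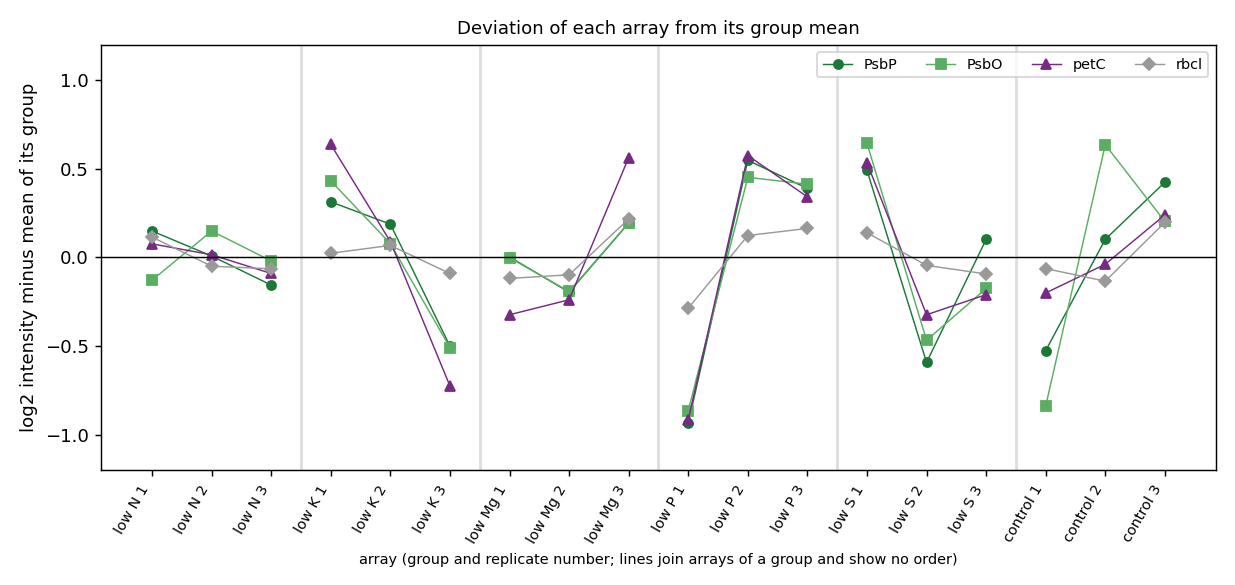
Log2 intensity minus the mean of the array's own group (vertical axis) on the 18 arrays, for the brightest probe set of PsbP, PsbO, petC and rbcl. The first 3 genes lie together below 0 on low P array 1 and low K array 3 and above 0 on low S array 1. The rbcl points lie between -0.29 and 0.22.

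Array medians differed between groups. They were 60.1 to 61.1 in low N, 53.3 to 62.0 in low K, 68.5 to 72.0 in low Mg, 69.0 to 69.8 in low P and 65.2 to 72.4 in low S roots, against 53.6 to 68.6 in the control. After quantile normalization, which gives all arrays the same distribution, the median of the 4 probe sets was 0.77 log2 in low S and 0.43 in low Mg against the control.

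Few other photosynthesis genes were found by name in the annotation, which gives a gene for 1273 of the 61179 wheat probe sets. PRK, phosphoribulokinase, which regenerates the substrate of Rubisco, reached the array median on low S array 1 alone and was not tested. PRK had 8.50, 5.59 and 8.91 in low N, 30.5, 30.7 and 20.5 in low K, 40.2, 14.0 and 57.3 in low Mg, 4.39, 55.9 and 19.4 in low P and 111, 46.4 and 41.8 in low S roots, against 14.7, 32.1 and 38.1 in the control. Its lowest array was low P array 1 and its highest low S array 1. The pair of probe sets named FBP ran from 0.922 to 45.2 and that named Trx-M, an m-type thioredoxin, from 3.42 to 48.9, and none of them was tested.

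A few genes known from roots are named in the annotation. None of them was shown here to be absent from shoots, so they do not test the root label. DMAS1, which makes the mugineic acids that grass roots secrete to take up iron, ran from 717 to 1286 over 3 probe sets and reached the array median on all 18 arrays. TaALMT1, a malate transporter known from root tips, ran from 21.0 to 149 and reached it on 13 arrays. PER1, a peroxidase by its synonym and the only match to the list of root markers, ran from 45.3 to 227 over a pair of probe sets. These reached the array median on 15 and 18 arrays. No gene of the leaf and shoot marker list is named in the annotation used here, so leaf transcripts could not be followed by those markers.

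For each gene, the 5 annotated genes with the highest Pearson correlation over the 18 arrays were taken, out of 655 compared. For PsbP these were LOC543448 (0.96), LOC100049048 (0.95), LOC100037649 (0.93), PsbO and petC. For PsbO they were LOC100049048 (0.94), LOC543448 (0.93), PsbP, LOC780623 (0.90) and petC. For petC they were PsbO, LOC100049048 (0.90), LOC543448 (0.89), PsbP and LOC780623 (0.88). The 3 genes appear in each other's lists. Among all 34254 other tested probe sets PsbO ranked 31 in likeness to PsbP and petC ranked 54, and 132 had a correlation with PsbP above 0.8.

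LOC543448 had 167 to 291 in low N, 613 to 1289 in low K, 886 to 1287 in low Mg, 388 to 1560 in low P and 874 to 2067 in low S roots, against 432 to 931 in the control. LOC100049048 had 248 to 411 in low N, 604 to 1328 in low K, 917 to 1319 in low Mg, 334 to 1224 in low P and 1148 to 2172 in low S roots, against 569 to 1128 in the control. Both were low in low N and wide in low P roots, which follows from their choice by likeness over these same arrays. Neither was called by limma against the control in any deficiency. LOC100037649 had 609 to 768 in low N and 493 to 1659 in low P roots, against 1038 to 1629 in the control. LOC780623 had 155 to 232 in low N and 145 to 354 in low P roots, against 197 to 293 in the control. Limma called neither of these against the control.

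The 28 rbcl probe sets did not give 1 level. Their medians over the 18 arrays ran from 0.671 to 21245. The 21 that were not tested stayed between 0.14 and 59.0. The 7 tested ones, by falling brightness, had medians of 21245, 15934, 354, 252, 101, 62.4 and 47.8, and are called the first to the seventh here. The identifiers of the first, the second and the seventh end in x_at, like that of the dimmer PsbP probe set, so their probes can also match other sequences. No single one is taken for the level of rbcl.

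**Figure D4:**
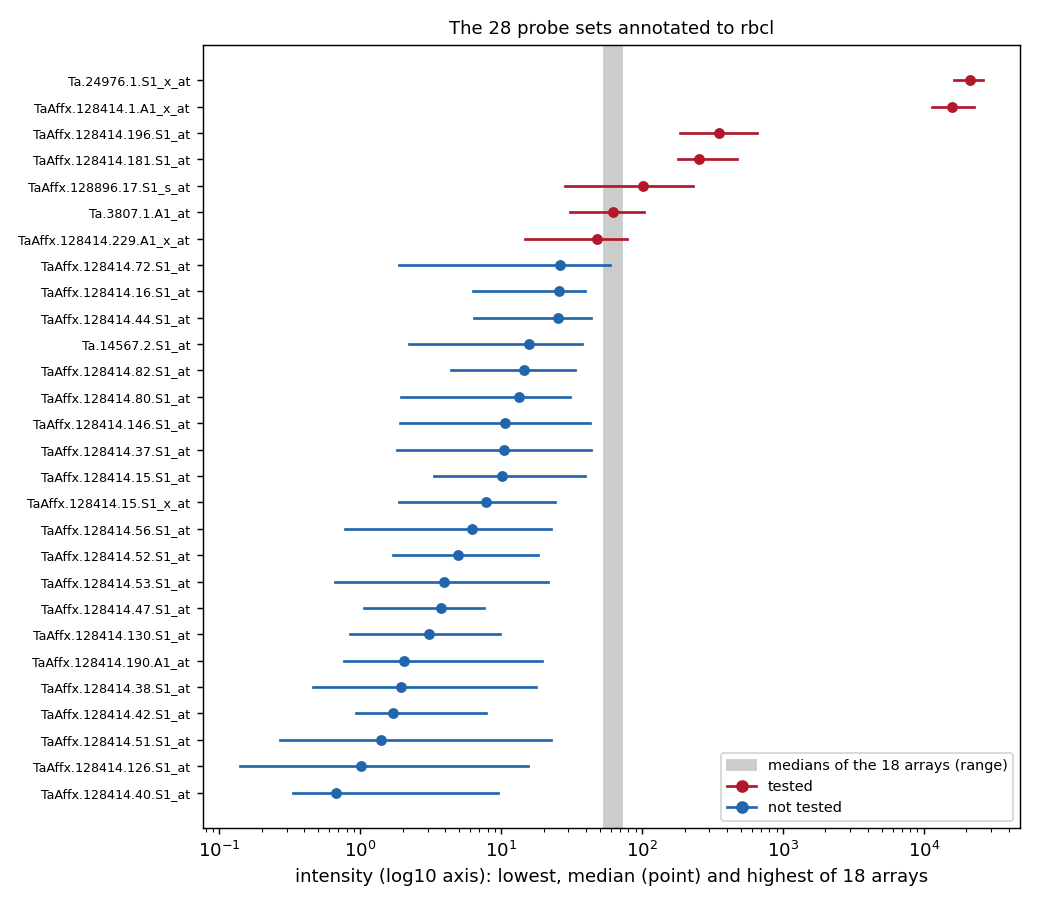
Lowest, median (point) and highest intensity over the 18 arrays (log10 horizontal axis) of the 28 probe sets annotated to rbcl, named on the vertical axis, with tested ones in red and the others in blue. The grey band spans the medians of the 18 arrays, 53.3 to 72.4, and a pair of probe sets lies far above all others.

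The first and second rbcl probe sets varied little, and both stood near the top of the scale. Among the wheat probe sets of an array the first lay from percentile 99.61 to 99.97 and the second from 98.98 to 99.72. Whether intensities this high still follow the amount of RNA was not tested, so the small variation does not show a steady transcript level. The first had 20728, 18497 and 18314 in low N, 25603, 26399 and 23657 in low K, 19916, 20198 and 25130 in low Mg, 16430, 21831 and 22444 in low P and 23671, 20836 and 20152 in low S roots, against 21655, 20610 and 25932 in the control. Its highest array was 1.61-fold its lowest. The low N difference from the control was -0.24 ± 0.12 log2, and the 95% intervals of all 5 differences from the control lay between -0.50 and 0.41.

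The second rbcl probe set followed the first with a correlation of 0.92 over the 18 arrays. It averaged 15305 ± 1669 in low N, 19833 ± 2529 in low K, 16438 ± 2575 in low Mg, 14456 ± 2592 in low P and 15505 ± 1763 in low S roots, against 17419 ± 2702 in the control (SD, n = 3 each). Both had their highest group mean in low K. The highest intensity of any wheat probe set was 40674, 39058 and 41929 on the low K arrays. It was 28717, 29309 and 32747 on the low P arrays. Array medians ran the other way, from 53.3 to 62.0 in low K and from 69.0 to 69.8 in low P. Whether these differences between whole arrays bear on the rbcl differences was not tested. In low P against low K the first stood at -0.33 ± 0.12 and the second at -0.47 ± 0.15 log2, with no overlap of arrays, and neither passed (limma, adjusted p = 0.0803 and 0.0503). The second was called lower after 75th percentile centring (limma, adjusted p = 0.0405), with 16 added before the logarithm (adjusted p = 0.0491) and without low P array 3 (adjusted p = 0.0487). All low P arrays lay below all low K arrays on 13.9% of all tested probe sets.

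The third, the fourth and the fifth rbcl probe sets had the opposite sign in that comparison. The third had 376, 212 and 328 in low N, 187, 277 and 292 in low K, 310.2, 360 and 449 in low Mg, 647, 340 and 658 in low P and 463, 423 and 435 in low S roots, against 348, 381 and 269.6 in the control. It was the 1 member called in any comparison, rising by 1.09 ± 0.26 log2 in low P against low K (limma, adjusted p = 0.0124), with 548 ± 181 in low P and 252 ± 56.9 in low K roots. The call was lost without low K array 1 (adjusted p = 0.0541), without low P array 1 (adjusted p = 0.0558) or 3 (adjusted p = 0.0587), and with only the 6 arrays compared (adjusted p = 0.0654, all by limma). With 13.9% of all tested probe sets called in low P against low K, 1 of 11 members is near the background.

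The fourth rbcl probe set had 183, 199 and 183 in low N, 181, 254 and 233 in low K, 250.4, 242 and 364 in low Mg, 293, 471 and 356 in low P and 352, 307 and 384 in low S roots, against 183, 388 and 202 in the control. The fifth averaged 46.9 ± 17.0 in low N, 87.9 ± 23.1 in low K, 131 ± 54.8 in low Mg, 166 ± 58.4 in low P and 145 ± 47.1 in low S roots, against 82.2 ± 54.3 in the control. All low P arrays lay above all low K arrays on the third, the fourth and the fifth, as on 18.5% of all tested probe sets. Against the control in low P they stood at 0.67, 0.59 and 1.15 log2 (limma, adjusted p = 0.11, 0.14 and 0.122). In low S against low K limma called 0 of 7 rbcl probe sets. At an unadjusted p under 0.05 it was 3 of 7, beside 6585 of all 34255 tested probe sets.

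Control array 2 stood apart on the fourth and the fifth, with 388 on the fourth and 145 on the fifth. Without it, limma called the fourth higher in low P (0.93 ± 0.21 log2, adjusted p = 0.0112) and in low S (0.85 ± 0.21 log2, adjusted p = 0.0466), and the fifth higher in low P (1.65 ± 0.45 log2, adjusted p = 0.0235). In that setting limma called 14.7% of all tested probe sets in low P, so 2 of 11 is near the background, and 2.9% in low S, 995 probe sets against 6 with all arrays. The median of control array 2 was 68.6, against 53.6 and 54.4 on the other control arrays, and its part in these calls was not tested. Without low P array 2, limma called the third higher in low P against the control (0.99 ± 0.24 log2, adjusted p = 0.0162), 1 of 11 members beside 10.8% of all tested probe sets.

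The sixth and seventh rbcl probe sets lay near the array medians. The sixth ran from 30.7 to 104, and each deficiency overlapped the control. The seventh had 14.7 to 25.9 in low N and 58.6 to 68.4 in low K roots, against 41.8 to 49.6 in the control. All its low N arrays lay below the control, as on 6.31% of all tested probe sets, and this too is a description. All its low K arrays lay above the control, as on 5.61% of all tested probe sets, at 0.49 ± 0.50 log2 (limma, adjusted p = 0.806). Detection calls were not used here.

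**Figure D5:**
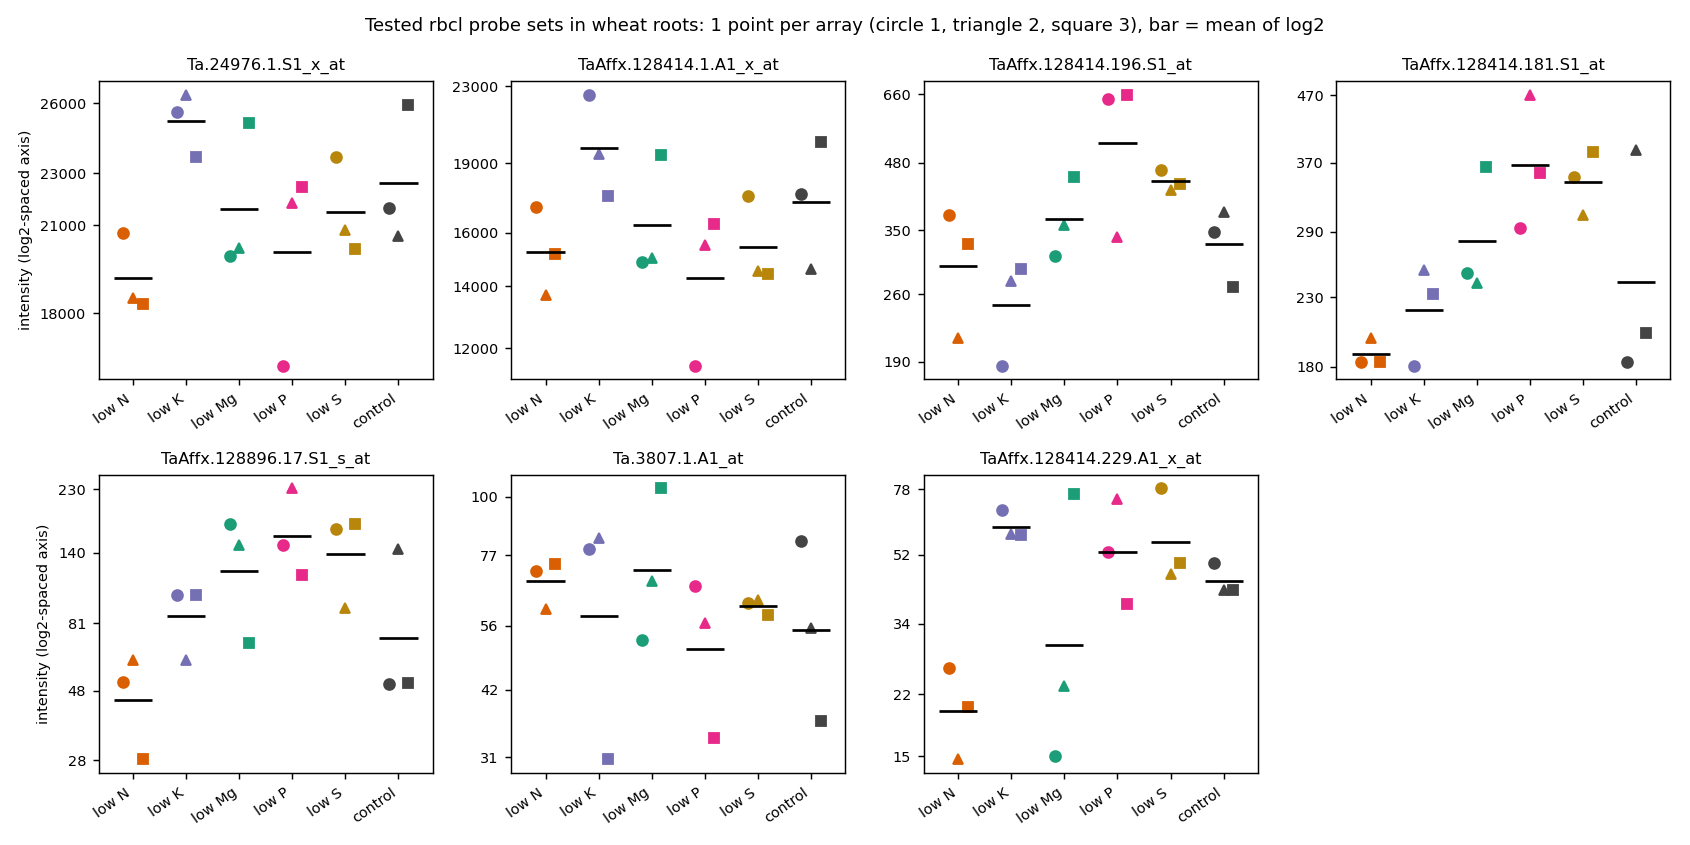
Intensity (log2-spaced vertical axis, a separate scale in each panel) of the 7 tested rbcl probe sets by group, with 1 point per array (circle, triangle and square for replicates 1, 2 and 3) and a bar at the mean of the log2 values. Low K has the highest bar in the 2 brightest probe sets and low P in the next 3.

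Within groups, deviations of the first rbcl probe set had a correlation of 0.77 with PsbP, 0.57 with PsbO and 0.83 with petC over the 18 arrays, against 0.64, 0.45 and 0.55 for the intensities themselves. The 5 genes most like it held none of these 3. They were tubb3 (0.90) and tubb1 (0.87), named as beta-tubulins of the cytoskeleton, and LOC100037609 (0.90), LOC100037598 (0.89) and LOC542971 (0.86).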

How the data were processed

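Root RNA, 500 ng per sample, was hybridised to 18 Affymetrix wheat arrays. Each array has a linear intensity for every probe set as deposited by the authors, who used Affymetrix Expression Console and MAS5 per the submitters' processing notes. Versions and scaling target were not found in the labels. Trimmed by 2% at each end, every array's mean was 500.1. The number of arrays limits the precision.

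After log2, without a constant, limma 3.58.1 (R 4.3.3) estimated 6 group means jointly, with eBayes, an intensity trend and 12 residual degrees of freedom. It tested 34255 probe sets (56% of the wheat ones). P-values are two-sided, with Benjamini-Hochberg adjustment over all of them, and a call is an adjusted p under 0.05. The fit was run on data simulated with independent noise of its own estimated spread. That checks the code, and not shifts that genes share on an array. Alternatives were other scalings, no filter, a constant of 16, no trend, a replicate block, fewer arrays, and each array left out.

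Names came from the platform annotation, which gives 1 gene for 1273 probe sets, joined to RefSeq by gene number (770 of 771 matched). It holds no descriptions. The lists of photosynthesis and marker genes matched PRK, PER1 and a gene with the ambiguous synonym atpA beyond the members. FBP, Trx-M, TaALMT1 and DMAS1 were added after the names were seen. All member probe sets are described, and each gene's brightest tested one served for likeness. The members and lists were chosen with earlier results of these data known.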

Additional observations from a re-analysis of the deposited data

How the results depend on the processing

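Counts of members called against the control stayed at 0 in low N, low K and low Mg under all alternatives run. With single arrays left out, they ran from 0 to 2 for low P against the control, from 0 to 1 for low S against the control and from 0 to 1 for low P against low K, while the share of all tested probe sets called ran from 2.47% to 14.7%, from 0.00584% to 2.9% and from 7.96% to 13.5% in these. The last count was 2 after 75th percentile centring (14.5% of all called), 2 with 16 added before the logarithm (14.1%), 2 with the replicate block (14.3%), which added the fourth rbcl probe set, and 0 with only the 6 arrays compared (7.04%). For low S against low K it was 1 with only the 6 arrays compared (3.9%). Replicate numbers did not pair the arrays (mean correlations of deviations 0.022, -0.015 and 0.00095), and the block moved no other count of members. Uncalled differences from the control changed sign as follows, with single arrays left out. In low K, petC ran from -0.18 to 0.50, PsbO from -0.087 to 0.65 and the dimmer PsbP probe set from -0.28 to 0.40, being at -0.063 without control replicate 1. In low Mg, the dimmer PsbP probe set ran from -0.062 to 0.18, being at -0.031 without low Mg replicate 3, and stood at -0.078 after quantile normalization. In low P, PsbO ran from -0.066 to 0.78 and the brighter PsbP probe set from -0.19 to 0.55, being at -0.18 without control replicate 1 and -0.11 without low P replicate 3. In low S, the differences of PsbP, PsbO and petC stayed between 0.38 and 1.41 log2 under all alternatives and none was called. The cause was not tested.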
